A study of Mus musculus with 40 samples.

Results

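The mouse mitochondrial genome encodes 37 genes, and all of them carry names that begin with mt-. They are 13 protein genes, 2 ribosomal RNAs (rRNAs) and 22 transfer RNAs (tRNAs), out of 55866 gene names in the largest count tables. They were taken by this name prefix and followed through RNA sequencing of whole mouse kidney after ischaemia-reperfusion injury (IRI) and after treatment with human mesenchymal stromal cells (MSCs). The study asked how bone marrow and umbilical cord MSCs act on the kidney injury that IRI causes, and how gene expression runs over time. Its 40 samples form 10 groups of 4, counted in 3 tables.

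All groups were C57bl/6-wt mice, whose age and sex the labels do not give. The temporal table held Control kidneys with no treatment and kidneys taken 6, 24, 48 and 72 h after IRI. The therapy table held UC-MSC kidneys (injury followed by human umbilical cord MSCs), BM-MSC kidneys (injury followed by human bone marrow MSCs), AKI kidneys (injury alone, labelled 6 h after reperfusion) and the same 4 Control libraries. MSCs were injected right after reperfusion under the same anaesthesia, and the labels do not say how long afterwards the BM-MSC and UC-MSC kidneys were taken. The sham table held sham 24 h kidneys, taken a day after an operation without IRI, and sham control kidneys with no surgery. A second label of the sham 24 h samples reads IRI, and the first label was followed here. Columns C1 to C4 of the sham table were read as its sham control group and are numbered by column. Nothing says whether the 4 samples of a group were separate animals, so the p-values speak to the spread among the samples alone, and that spread may be technical.

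Mitochondrial DNA is transcribed from both strands as long RNAs that span many genes. The RNA polymerase is POLRMT, assisted by TFAM and TFB2M. Most tRNAs sit between the longer genes and are cut out at their ends by RNase P and ELAC2, which frees the rRNAs and the messenger RNAs. The encoded proteins are core subunits of respiratory complexes I, III, IV and V, whose other subunits come from nuclear genes, and the proximal tubule of the kidney is rich in mitochondria. LRPPRC binds and stabilises mitochondrial messenger RNAs.

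The results below turn on 8 tRNAs and on mt-Atp8, whose sequences are printed 5′ to 3′ from the GRCm38 genome with GENCODE M21 gene positions. The capitals mark the anticodon in the tRNAs. In mt-Atp8 they mark the last 43 bases, which the start of mt-Atp6 shares, so that counting by gene cannot place a read from there.
mt-Tp, proline tRNA (chrM:15356-15422, minus strand): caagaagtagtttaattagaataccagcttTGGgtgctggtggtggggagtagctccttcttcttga
mt-Te, glutamate tRNA (chrM:14071-14139, minus strand): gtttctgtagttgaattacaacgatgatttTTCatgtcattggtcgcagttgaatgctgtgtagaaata
mt-Tc, cysteine tRNA (chrM:5192-5257, minus strand): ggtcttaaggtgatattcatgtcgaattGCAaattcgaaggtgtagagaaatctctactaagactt
mt-Tn, asparagine tRNA (chrM:5089-5159, minus strand): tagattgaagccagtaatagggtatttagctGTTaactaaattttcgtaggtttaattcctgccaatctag
mt-Ty, tyrosine tRNA (chrM:5260-5326, minus strand): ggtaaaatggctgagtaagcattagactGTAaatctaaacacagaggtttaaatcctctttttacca
mt-Tl1, leucine tRNA (chrM:2676-2750, plus strand): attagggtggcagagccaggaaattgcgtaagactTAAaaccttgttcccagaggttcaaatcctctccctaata
mt-Ti, isoleucine tRNA (chrM:3706-3774, plus strand): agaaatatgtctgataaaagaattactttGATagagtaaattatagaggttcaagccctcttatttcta
mt-Ts2, serine tRNA (chrM:11613-11671, plus strand): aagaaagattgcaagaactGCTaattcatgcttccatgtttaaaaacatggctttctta
mt-Atp8, subunit of ATP synthase (chrM:7766-7969, plus strand): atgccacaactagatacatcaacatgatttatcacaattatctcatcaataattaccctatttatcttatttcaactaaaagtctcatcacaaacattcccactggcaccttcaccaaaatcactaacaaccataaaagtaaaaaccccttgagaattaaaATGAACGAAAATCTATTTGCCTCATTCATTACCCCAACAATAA

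The rRNA genes mt-Rnr1 (955 bases, chrM:70-1024) and mt-Rnr2 (1582 bases, chrM:1094-2675) lie next to each other on the plus strand, with mt-Tv between them and mt-Tl1 right after mt-Rnr2. The light-strand genes number 9, which are mt-Nd6 and 8 tRNAs, 5 of them printed above as minus strand. The sources used here do not say whether strand was used in counting. Without strand, reads from a gene and from the opposite transcript over the same bases cannot be told apart, which concerns all light-strand genes and the 14 bases that mt-Nd5 and mt-Nd6 share. How RNA was selected for the libraries is not given either, beyond total RNA extraction with a column kit.

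The temporal and therapy tables disagree on the Control counts of 75 names, although the Control libraries are the same. Of the 37 mt- names, 28 agree: both rRNAs, all 22 tRNAs, mt-Atp8, mt-Co2, mt-Nd3 and mt-Nd6. The other 9 (mt-Atp6, mt-Co1, mt-Co3, mt-Cytb, mt-Nd1, mt-Nd2, mt-Nd4, mt-Nd4l and mt-Nd5) were left out of tests in these tables and used in the sham table. The agreement covers Control columns only. In the temporal table the Control and 6 h libraries had been joined apart from the 24, 48 and 72 h libraries, and in the therapy table AKI apart from the others, so a difference between these sets of columns and a difference between the groups cannot be told apart. Library totals over the names analysed were 4656775 to 17589826 counts in the temporal table, with the 72 h libraries lowest, 13007459 to 18538072 in the therapy table and 26601247 to 37097091 in the sham table. Levels are given in CPM, the usual count unit relative to those library totals, after TMM scaling within each table.

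All 37 members can be set in order only in the sham table. In sham control kidneys mt-Co1, the catalytic subunit of complex IV, had the highest level per length, 66640 CPM per kilobase. Next came mt-Cytb (complex III) at 55910, mt-Nd1 at 40510, mt-Nd2 at 30290, mt-Nd4 at 25040, mt-Nd5 at 18100 and mt-Nd6 at 13870 CPM per kilobase, the last 5 all subunits of complex I. The remaining protein genes were lower: mt-Co2 5351, mt-Co3 3840, mt-Atp6 3556, mt-Nd4l 634, mt-Nd3 364 and mt-Atp8 47.4 CPM per kilobase. The rRNAs stood below most protein genes, mt-Rnr1 at 1644 and mt-Rnr2 at 1415 CPM per kilobase. Among tRNAs mt-Tp was at 3569 CPM per kilobase and the others at or near 0.

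**Figure D1:**
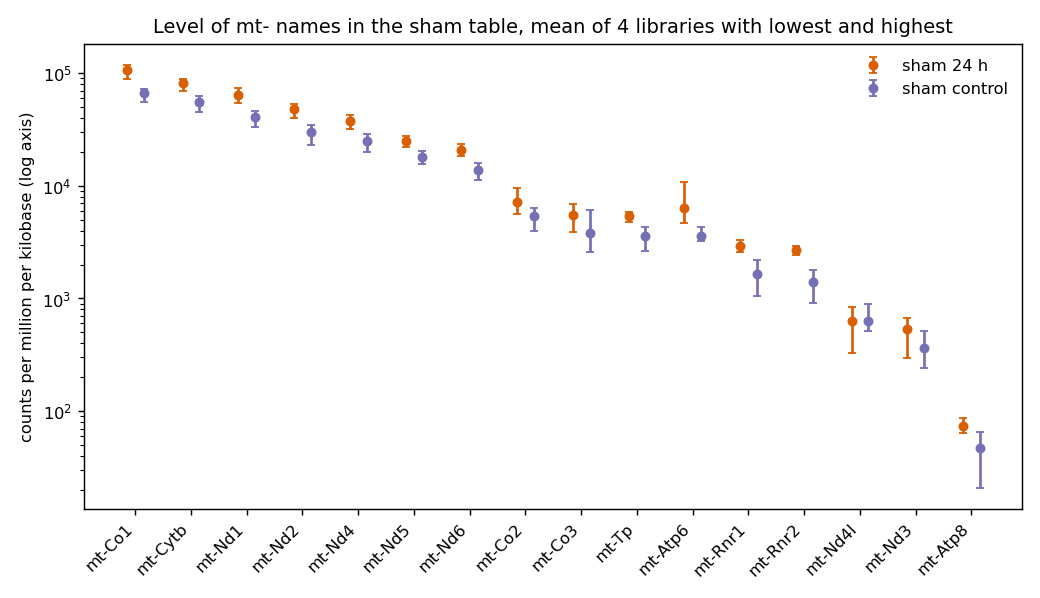
Level of each mt- name in the sham table, in CPM per kilobase of gene on a log axis, with sham 24 h left of sham control. Points are means of 4 libraries and lines run from the lowest to the highest library; mt-Co1 is highest and mt-Atp8 lowest among the names shown.

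mt-Atp6, mt-Co1, mt-Co2, mt-Co3, mt-Nd3, mt-Nd4 and mt-Nd4l have nuclear genes that copy them almost letter for letter, so their reads may be split. mt-Co2 matches Gm28661 at 100% over 99.6% of its length, and mt-Co3 matches Gm28437 at 100% over 99.9%. In sham control libraries the coefficient of variation over libraries ran between 11.6% (mt-Co1) and 39.6% (mt-Co3) for protein genes with such copies, and between 10.4% (mt-Nd5) and 40.8% (mt-Atp8) for protein genes without, so these ranges overlap.

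Over the days after IRI both rRNAs rose, as plotted by library below. mt-Rnr1, the RNA of the small mitochondrial ribosomal subunit, stood at 894, 876, 762 and 779 CPM in Control, 1789, 926, 1186 and 982 at 6 h, 7654, 7175, 6209 and 6504 at 24 h, 9072, 12460, 10770 and 13030 at 48 h and 12810, 14230, 12730 and 14140 CPM at 72 h. Each IRI library at each time was above each Control library. mt-Rnr2, the RNA of the large subunit, stood at 1390, 1323, 1228 and 1272 CPM in Control, 3184, 1287, 1284 and 1246 at 6 h, 12240, 11180, 8812 and 9707 at 24 h, 12500, 31900, 15050 and 28950 at 48 h and 17930, 18720, 18260 and 18590 CPM at 72 h. Only library 1 of the 6 h group left the Control range, and from 24 h on the groups did not overlap with Control.

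**Figure D2:**
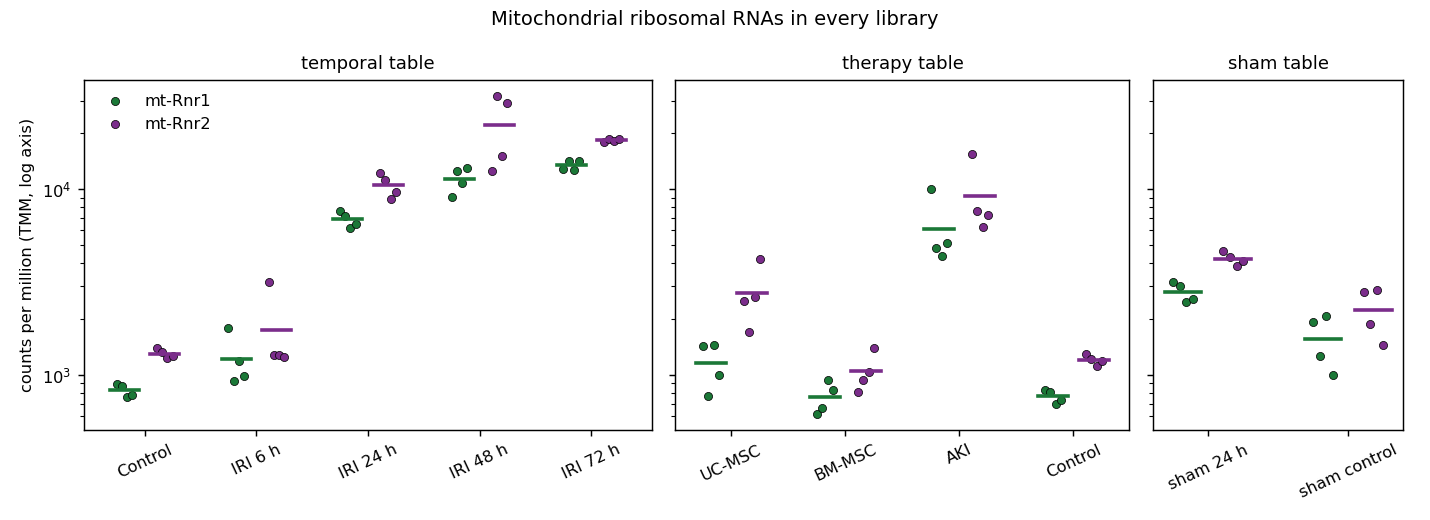
mt-Rnr1 and mt-Rnr2 in every library of the 3 tables, in CPM on a log axis; each point is a library and each bar the mean of 4. From 24 h after IRI all libraries lie above Control, AKI libraries lie above all other groups of the therapy table, and sham 24 h libraries lie above sham control by less.

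Tested with edgeR (quasi-likelihood, p adjusted by Benjamini-Hochberg over all names tested), mt-Rnr1 was higher by 3.06 ± 0.18 on the log2 scale at 24 h (adjusted p = 2.6e-11), by 3.78 ± 0.19 at 48 h (5.2e-13) and by 4.03 ± 0.19 at 72 h (1.8e-13; ± gives the standard error here and below). mt-Rnr2 was higher by 3.01 ± 0.30 at 24 h (adjusted p = 2.8e-08), 4.08 ± 0.31 at 48 h (3.2e-10) and 3.82 ± 0.31 at 72 h (5.8e-10). At 6 h mt-Rnr1 passed by edgeR with 0.56 ± 0.17 (adjusted p = 0.022), and without 6 h library 1 the change was 0.32 (0.12). mt-Rnr2 at 6 h did not pass by edgeR (0.43 ± 0.28, adjusted p = 0.34). The medians of all names tested lay between -0.07 and 0.05. In whole kidney, fewer cells of a type and less RNA per cell cannot be told apart.

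Counted over the members that could be tested, 1 was called higher and 2 lower at 6 h, 12 higher and 0 lower at 24 h, 20 higher and 1 lower at 48 h, and 18 higher and 1 lower at 72 h, of 23 tested each time. Of all 16659 names tested, 18.8% were called at 6 h (10.3% higher, 8.52% lower), 42% at 24 h (21.8% higher, 20.2% lower), 53.7% at 48 h (26.9% higher, 26.8% lower) and 56.3% at 72 h (26.7% higher, 29.6% lower). All 4 time points were set against the same 4 Control libraries. The filter on low counts left out mt-Tf, which was at 0 in every library of both tables, and mt-Td, mt-Tg, mt-Tk and mt-Tr, which never passed 16 counts. Some tRNAs passed the filter mainly through injured libraries: mt-Tv had 0, 3, 0 and 0 counts in Control, and mt-Tt 0, 0, 0 and 4. The counts of members called include such tRNAs and are given as a description.

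The tRNAs followed more than a single course. Of 17 that passed the filter, 2 fell at 6 h and the rest did not pass the test, 7 rose at 24 h, 15 rose at 48 h and 13 rose at 72 h, mt-Tv and mt-Tt among those 17. mt-Tp, the most abundant, stood at 260, 289, 248 and 251 CPM in Control, 203, 170, 176 and 172 at 6 h, 588, 495, 282 and 357 at 24 h, 457, 618, 540 and 767 at 48 h and 1046, 1027, 891 and 1082 CPM at 72 h. All 6 h libraries lay below Control. At 24 h library 3 lay inside the Control range, and at 48 and 72 h all libraries lay above it. By edgeR's quasi-likelihood test mt-Tp was lower at 6 h by 0.54 ± 0.18 on the log2 scale (adjusted p = 0.039, lost when any of 7 libraries was left out, up to 0.11) and higher by 0.72 ± 0.18 at 24 h (0.0026), 1.19 ± 0.18 at 48 h (9.1e-06) and 1.95 ± 0.19 at 72 h (7.8e-09).

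mt-Te, which lies beside mt-Nd6 on the light strand, had 59.4, 100, 72.6 and 136 CPM in Control, 23.3, 50.01, 45.6 and 55.4 at 6 h, 105, 99.8, 59.3 and 69.2 at 24 h, 97.5, 351, 84.8 and 225 at 48 h and 114, 146, 109 and 159 CPM at 72 h. All 6 h libraries lay below Control, and at every later time the ranges overlapped. The edgeR test gave -1.08 ± 0.36 at 6 h (adjusted p = 0.038, up to 0.16 when a library was left out), -0.14 at 24 h (0.78), 1.04 ± 0.36 at 48 h (0.017) and 0.52 at 72 h (0.22). Without 48 h libraries 2 and 4 the 48 h value was -0.08 (adjusted p = 0.87).

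Those 48 h libraries stood apart in several tRNAs, as the plot of tRNA levels by time shows. mt-Tl1 had 42.6, 498, 20.7 and 306 CPM at 48 h, against 7.73, 8.61, 8.81 and 11.7 CPM in Control. Libraries 2 and 4 were far above libraries 1 and 3, and all were above Control. mt-Ty had 28.9, 494, 7.21 and 359 CPM at 48 h, against 11.2, 20.1, 14.1 and 17.9 CPM in Control, with library 3 below Control. mt-Tc had 106, 797, 75.7 and 544 CPM at 48 h, against 29.3, 38.6, 35.8 and 28.4 CPM in Control, all above Control. The same libraries were the highest for mt-Rnr2, whose ratio to mt-Rnr1 was 2.56 and 2.22 in them, against 1.38 and 1.40 in libraries 1 and 3.

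**Figure D3:**
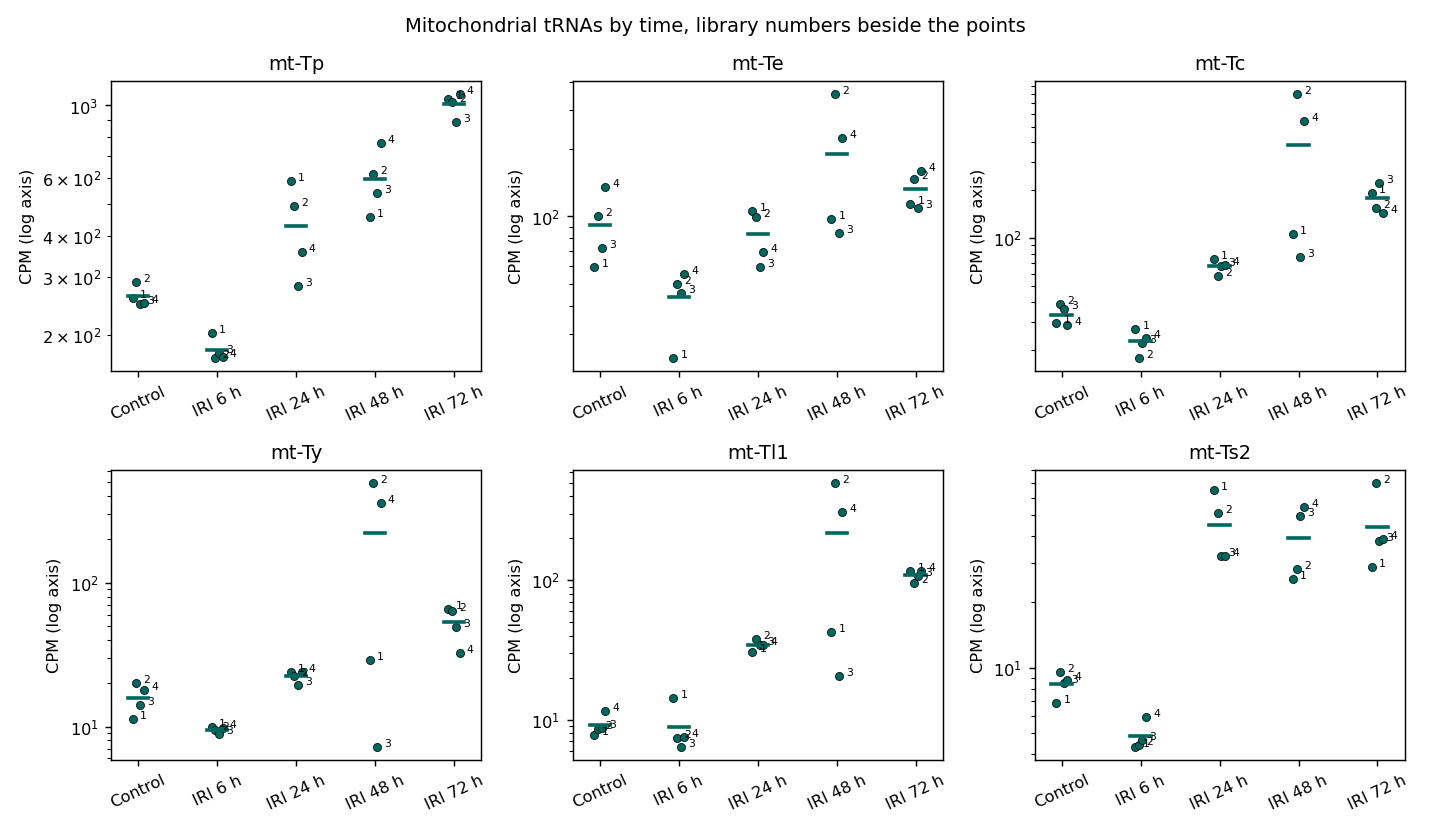
Levels of mt-Tp, mt-Te, mt-Tc, mt-Ty, mt-Tl1 and mt-Ts2 in Control and at 6, 24, 48 and 72 h after IRI, in CPM on a log axis. Each library is drawn as its number and bars are means of 4; at 48 h libraries 2 and 4 lie far above 1 and 3 for mt-Tl1, mt-Tc and mt-Ty, but not for mt-Tp.

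At 48 h edgeR gave mt-Tl1 4.56 ± 0.63, mt-Ty 3.81 ± 0.72 and mt-Tc 3.53 ± 0.48 on the log2 scale (adjusted p = 2.2e-06, 0.00011 and 1.9e-06). Without libraries 2 and 4, an alternative chosen after seeing these values, mt-Tl1 was at 1.71 and mt-Tc at 1.40, both still called. mt-Ty was then at 0.12 (adjusted p = 0.82), and 13 of 24 members tested were called, 12 higher and 1 lower. In that fit 9232 of all names were called, against 8950 with all libraries. At 72 h the libraries did not split this way: mt-Tl1 had 116, 95.3, 107 and 116 CPM and edgeR gave 3.56 ± 0.61 (adjusted p = 3.3e-05). mt-Tc had 193, 155, 223 and 144 CPM at 72 h (2.44 ± 0.46, adjusted p = 0.00011 by edgeR). At 24 h mt-Tl1 had 30.9, 37.9, 34.4 and 34.4 CPM (1.90 ± 0.58, adjusted p = 0.011 by edgeR).

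Another set of tRNAs was already high at 24 h. mt-Th, the histidine tRNA, had 105, 73.6, 44.9 and 44.5 CPM at 24 h, against 5.26, 7.56, 5.71 and 5.97 CPM in Control, with no overlap. mt-Ts2, the next gene on the genome, had 64.7, 50.7, 32.5 and 32.4 CPM at 24 h, against 6.91, 9.59, 8.46 and 8.75 CPM in Control, also with no overlap. By edgeR mt-Th was higher by 3.45 ± 0.36 at 24 h, 2.44 ± 0.35 at 48 h and 2.77 at 72 h on the log2 scale (adjusted p = 7.1e-08, 4.1e-06 and 7.1e-07), and mt-Ts2 by 2.42 ± 0.30, 2.22 ± 0.30 and 2.38 ± 0.31 (8.9e-07, 1.8e-06 and 6.5e-07). At 24 h mt-Tc (1.02, adjusted p = 0.074), mt-Ty (0.50, 0.58), mt-Tn (0.29, 0.59) and mt-Ta (1.49, 0.097), which lie side by side on the light strand, did not pass by edgeR. The light-strand share of tRNA counts was 83.3% to 86.7% in Control, 79.0% to 83.9% at 6 h, 68.8% to 72.4% at 24 h, 76.4% to 78.8% at 48 h and 78.8% to 84.9% at 72 h.

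**Figure D4:**
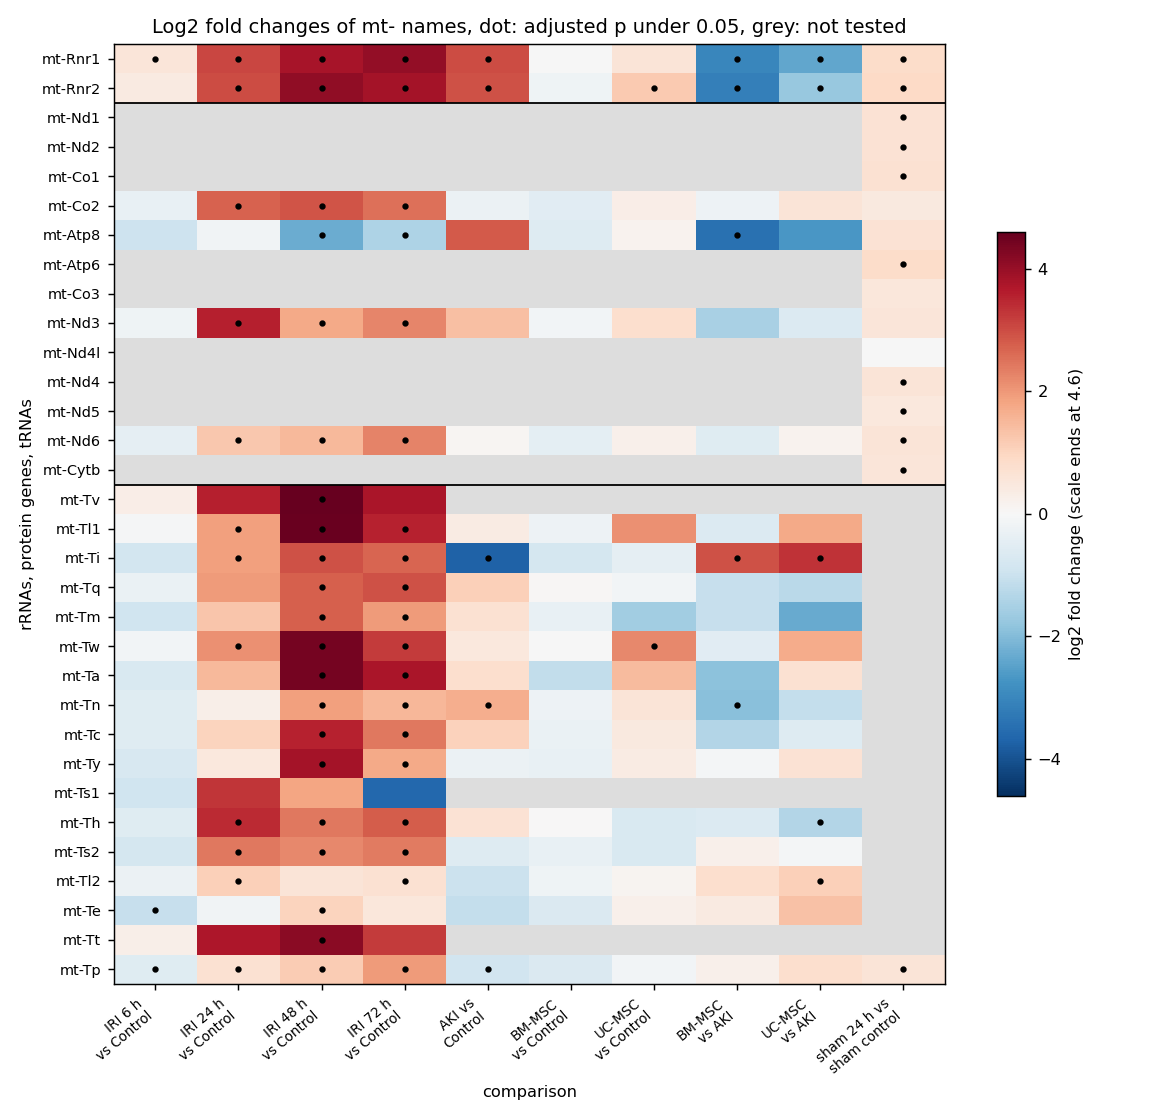
Log2 fold change of each tested mt- name (rows) in 10 comparisons (columns) as colour, with a dot where the edgeR adjusted p was under 0.05 and grey where the name was not tested. The IRI 24, 48 and 72 h columns are mostly higher, the AKI column is higher for the rRNAs, and the BM-MSC against Control column holds no dot.

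Of the 4 protein genes with agreeing counts, mt-Nd6, mt-Co2 and mt-Nd3 rose and mt-Atp8 fell. mt-Nd6, a complex I subunit and the only protein gene of the light strand, stood at 5069, 4965, 4212 and 4834 CPM in Control, 2407, 3163, 5110 and 3770 at 6 h, 15080, 12190, 8092 and 9335 at 24 h, 11570, 14480, 12310 and 14630 at 48 h and 21220, 24340, 22010 and 24250 CPM at 72 h. The 6 h range overlapped with Control, and each later library lay above Control. By edgeR it was at -0.40 ± 0.20 at 6 h (adjusted p = 0.18) and higher by 1.23 ± 0.20 at 24 h (2.3e-05), 1.47 ± 0.20 at 48 h (1.5e-06) and 2.27 ± 0.20 at 72 h (3e-09). Per 100 counts of mt-Nd6 there were 42.4 to 47.2 rRNA counts in Control, 132 to 186 at 24 h, 186 to 306 at 48 h and 135 to 145 at 72 h.

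mt-Atp8 had 4.35, 3.11, 1.57 and 2.93 CPM at 48 h, against 21.4, 22.6, 7.43 and 6.32 CPM in Control. All 48 h libraries lay below Control, where libraries 1 and 2 were well above 3 and 4. By edgeR it was lower by 2.27 ± 0.53 on the log2 scale at 48 h (adjusted p = 0.001) and by 1.43 ± 0.52 at 72 h (0.022, up to 0.088 when a library was left out), and at -0.15 at 24 h (0.84). mt-Nd3, a complex I subunit, had 123, 101, 484 and 369 CPM at 24 h and 105, 104, 113 and 106 CPM at 72 h, against 41.2, 18.2, 16.1 and 15.1 CPM in Control. Both times lay above Control throughout, and edgeR gave 3.57 ± 0.52 at 24 h (adjusted p = 6.4e-06), 1.75 ± 0.49 at 48 h (0.0045) and 2.24 ± 0.50 at 72 h (0.00057).

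mt-Co2, a complex IV subunit, had 5107, 3980, 5145 and 8641 CPM at 24 h, 1242, 7979, 6229 and 10440 at 48 h and 3056, 2154, 13100 and 2229 CPM at 72 h, against 1554, 962, 479 and 512 CPM in Control. All 24 h and 72 h libraries lay above Control, with 72 h library 3 far above the others, and 48 h library 1 lay inside the Control range. By edgeR it was higher by 2.71 ± 0.63 at 24 h (adjusted p = 0.0013), 2.88 ± 0.64 at 48 h (0.00059) and 2.55 ± 0.63 at 72 h (0.0015), and at 1.46 without 72 h library 3. The temporal table repeats the mt-Co2 counts under Gja1, a gap junction gene, in 20 of 20 libraries.

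For the other 9 protein genes the temporal table holds the therapy table's Control counts under other names, such as those of mt-Co1 under Akr1a1 and those of mt-Nd1 under Pth1r. Reading these genes from the matched rows was an alternative chosen after seeing the data, and the match rests on Control counts only. Read so, mt-Co1 was at 0.73 at 24 h, 1.40 at 48 h and 2.03 at 72 h on the log2 scale (edgeR adjusted p = 2.9e-07 at 72 h), and mt-Nd1 at 1.17, 2.08 and 2.65 (3e-09 at 72 h). At 6 h mt-Cytb (-0.98, 0.001), mt-Nd2 (-1.07, 0.0057), mt-Nd4 (-0.98, 0.0051), mt-Nd4l (-1.75, 0.0074) and mt-Nd5 (-0.68, 0.042) were then lower by edgeR.

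Nuclear genes that act on mitochondrial DNA and RNA moved in both directions. Of 40 tested factors, 5 rose and 9 fell at 24 h, 7 rose and 10 fell at 48 h, and 6 rose and 14 fell at 72 h, where 21.8%, 26.9% and 26.7% of all names rose and 20.2%, 26.8% and 29.6% fell. These counts are close to the shares over all names or below them, and are given as a description. Lrpprc fell by 1.31 ± 0.20 at 24 h and by 2.06 ± 0.21 at 72 h on the log2 scale (edgeR adjusted p = 1.1e-05 and 1.6e-08). Grsf1, an RNA-binding protein of mitochondrial RNA granules, fell by 2.04 at 24 h and 2.01 at 72 h (6.2e-09 and 3.8e-09 by edgeR). Ssbp1, the single-strand DNA binding protein of mtDNA replication, rose by 1.08, 1.69 and 1.53 at 24, 48 and 72 h (8e-05, 1.5e-07 and 5.9e-07 by edgeR). Polrmt did not pass at any of these times (lowest edgeR adjusted p 0.064, at 72 h). Tfam averaged 68.46 CPM in Control, 32.91 at 24 h, 32.05 at 48 h and 29.85 CPM at 72 h. Of 79 tested nuclear subunits of complexes I to V, 17 rose and 27 fell at 24 h, 6 rose and 54 fell at 48 h, and 5 rose and 56 fell at 72 h. Those that fell include Sdha of complex II (-2.66 ± 0.17) and Atp5a1 of complex V (-2.29 ± 0.12) at 72 h.

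Proximal tubule markers moved in the same libraries. The summed level of 12 of 12 marker genes was 13550 to 16730 CPM in Control, 2420 to 7861 at 6 h, 1489 to 2508 at 24 h, 628 to 1872 at 48 h and 840 to 1032 CPM at 72 h, and none was at 0. The 6 h library with the highest rRNA had the lowest sum, 2420 CPM, and 48 h libraries 2 and 4 had the lowest sums of their group, 628 and 942 CPM. Other groups went the other way. Library 1 was the highest in both rRNAs at 24 h and in AKI, and had the highest sum of its group, 2508 and 9964 CPM. Among UC-MSC libraries the highest in mt-Rnr2, library 4, had the highest sum, 6597 CPM. Among BM-MSC libraries the highest in mt-Rnr2, library 4, had the lowest, 4928 CPM. Rn7sk, a nuclear RNA without a poly(A) tail, had mean levels of 1.41 CPM in Control and 31.2 at 24 h, 5.13 at 48 h and 5.41 CPM at 72 h, while of 7 such RNAs tested at 24 h 1 rose and 2 fell. Single libraries had 0.963 to 2.03 CPM of Rn7sk in Control, 5.02 to 64.96 at 24 h, 2.07 to 12.75 at 48 h and 2.18 to 11.74 CPM at 72 h. The part of these changes in the mt- values was not tested.

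In the therapy table the injury-only AKI kidneys were high in both rRNAs, and the kidneys given either kind of MSC were lower than AKI in both. mt-Rnr1 had 10050, 4818, 4383 and 5157 CPM in AKI, against 834, 810, 696 and 730 CPM in Control. mt-Rnr2 had 15460, 7590, 6258 and 7308 CPM in AKI, against 1298, 1223, 1122 and 1192 CPM in Control. No AKI library overlapped with Control, and library 1 was the highest for both. By edgeR's quasi-likelihood test mt-Rnr1 was higher by 2.99 ± 0.30 and mt-Rnr2 by 2.92 ± 0.33 on the log2 scale (adjusted p = 7.2e-06 and 1.9e-05). Leaving out AKI library 1 gave 2.61 for mt-Rnr1 and 2.52 for mt-Rnr2, both still called.

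Of 20 members tested against Control in AKI, 3 were called higher and 2 lower, where 35% of all names were called (20% higher, 15% lower). Beyond the rRNAs, mt-Tn had 125, 42.1, 40.6 and 31.8 CPM in AKI, against 30.8, 18.4, 13.3 and 12.0 CPM in Control, each AKI library above Control. The edgeR change was 1.69 ± 0.52 (adjusted p = 0.019), and 1.00 (0.08) without AKI library 1, and the call was also lost without Control library 3 or 4. mt-Ti had 0.42, 0.26, 0 and 0.06 CPM in AKI, against 2.37, 3.11, 2.26 and 2.15 CPM in Control, each AKI library below Control (-3.73 ± 0.90, adjusted p = 0.0049 by edgeR). mt-Tp had 70.1, 161, 110 and 185 CPM in AKI, against 243, 267, 226 and 235 CPM in Control, each AKI library below Control (-0.89 ± 0.33, adjusted p = 0.046 by edgeR, up to 0.11 when a library was left out).

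Protein genes in AKI did not pass: mt-Nd6 was at 0.10 ± 0.45 (edgeR adjusted p = 0.89), mt-Co2 at -0.29 (0.77), mt-Nd3 at 1.39 (0.12) and mt-Atp8 at 2.82 ± 1.17 (0.07). mt-Atp8 had 355, 5.69, 1.72 and 18.04 CPM in AKI, against 19.99, 20.9, 6.79 and 5.92 CPM in Control, so library 1 alone was above Control. Per 100 counts of the 13 protein genes under their therapy-table names, AKI held 7.89 to 12.6 rRNA counts, BM-MSC 1.34 to 3.22, UC-MSC 1.54 to 4.39 and Control 1.09 to 1.24. With every therapy-table name kept, none of the 9 disagreeing protein genes passed by edgeR in AKI against Control, for example mt-Co1 (-0.21), mt-Cytb (-0.19) and mt-Nd1 (0.18). In CPM of library totals, unscaled, mt-Co1 had 74400, 28470, 24360 and 44090 in AKI, against 54410, 56080, 46130 and 56040 in Control. mt-Nd2 had 20250, 6597, 5782 and 10530 in AKI, against 14660, 15160, 12720 and 13970 in Control. For both, library 1 lay above Control and the other AKI libraries below it. For mt-Cytb and mt-Nd1 library 4 did not lie below Control.

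In BM-MSC kidneys mt-Rnr1 had 618, 667, 942 and 830 CPM, against 10050, 4818, 4383 and 5157 CPM in AKI, and mt-Rnr2 had 805, 945, 1039 and 1403 CPM, against 15460, 7590, 6258 and 7308 CPM in AKI. The BM-MSC and AKI ranges did not overlap, and by edgeR mt-Rnr1 fell by 2.998 ± 0.30 and mt-Rnr2 by 3.13 ± 0.34 on the log2 scale (adjusted p = 8.3e-06 and 1.5e-05). Against AKI 1 of 20 members tested was called higher and 4 lower (33.3% of all names called, 16.3% higher and 17.1% lower). The others were mt-Tn (-1.92 ± 0.52, adjusted p = 0.01), mt-Ti (2.93 ± 0.90, 0.02) and mt-Atp8 (-3.42 ± 1.2, 0.037), and mt-Atp8 was at 0.07 without AKI library 1. The mt-Ti call was lost when any of 4 libraries was left out (edgeR adjusted p up to 0.058).

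Against Control, 0 of 20 members were called in BM-MSC by edgeR's quasi-likelihood test, where 8.92% of all names were called (6.56% higher, 2.36% lower). No member had an unadjusted p under 0.05 (0 of 20), DESeq2 called 0, and the lowest edgeR adjusted p was 0.23. mt-Rnr1 was at -0.01 and mt-Rnr2 at -0.21 on the log2 scale. The ranges of BM-MSC lay below Control for 2 of 28 members and overlapped for the other 26. No share over all names was taken for this count, which is given as a description. The 28 leave out the protein genes whose counts disagree. With every therapy-table name kept, 0 of 29 members tested were called by edgeR. In CPM of library totals, mt-Co1 had 30580 to 42970 in BM-MSC, all below the 46130 to 56080 in Control. mt-Cytb, mt-Nd1, mt-Nd2 and mt-Nd4 also lay below Control throughout. For mt-Atp6, mt-Co3, mt-Nd4l and mt-Nd5 the ranges overlapped. This too is a description.

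In UC-MSC kidneys mt-Rnr1 had 1437, 771, 1453 and 999 CPM, against 10050, 4818, 4383 and 5157 CPM in AKI, and mt-Rnr2 had 2509, 1693, 2626 and 4212 CPM, against 15460, 7590, 6258 and 7308 CPM in AKI. The UC-MSC and AKI ranges did not overlap, and by edgeR mt-Rnr1 fell by 2.39 ± 0.29 and mt-Rnr2 by 1.73 ± 0.32 (adjusted p = 2.6e-05 and 0.00062). Against AKI 2 of 20 members tested were called higher and 3 lower (40.4% of all names called, 20.3% higher and 20.1% lower). mt-Ti was higher (3.33 ± 0.91, adjusted p = 0.0085), mt-Tl2, a second leucine tRNA, higher (1.09 ± 0.40, 0.039) and mt-Th lower (-1.36 ± 0.46, 0.029). The mt-Th call was lost when any of 5 libraries was left out (edgeR adjusted p up to 0.088). Under edgeR mt-Tl2 was at 0.37 without UC-MSC library 4.

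Against Control, mt-Rnr2 had 1693 to 4212 CPM in UC-MSC, all above the 1122 to 1298 CPM in Control, and was higher by 1.19 ± 0.31 on the log2 scale (edgeR adjusted p = 0.0079), while mt-Rnr1 overlapped (0.60 ± 0.28, 0.098). In all, 2 of 20 members were called higher and 0 lower (37.1% of all names called, 20.4% higher and 16.7% lower). The other was mt-Tw, the tryptophan tRNA, with 1.75, 5.19, 2.25 and 30.2 CPM in UC-MSC, against 1.18, 1.94, 1.51 and 3.84 CPM in Control. Its ranges overlapped, and edgeR gave 2.2 ± 0.80 (adjusted p = 0.04), or 0.53 (0.51) without UC-MSC library 4. Between the treatments 1 member was called, mt-Rnr2, higher in UC-MSC than in BM-MSC by 1.40 ± 0.32 (edgeR adjusted p = 0.0067), where 20.5% of all names were called (10% higher, 10.4% lower).

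UC-MSC library 4 and AKI library 1 stood apart from their groups in several members. UC-MSC library 4 had 12220 CPM of mt-Nd6, against 2181, 4374 and 2244 CPM in the other UC-MSC libraries, and a mt-Rnr2 to mt-Rnr1 ratio of 4.22, against 1.75, 2.195 and 1.81. Summed adrenal markers were 547 CPM in AKI library 1, against 4.86 to 33.2 CPM in the other AKI libraries. In UC-MSC they were 81.9 CPM in library 4, 32.3 in library 1, 579 in library 2 and 1916 CPM in library 3. The part of adrenal RNA in the mt- values was not tested, and all 5 adrenal marker genes were detected in these groups. Leaving out both libraries, chosen after seeing the values, gave 11 of 20 members called in AKI against Control (3 higher, 8 lower). With all libraries 5 were called, and mt-Rnr1 and mt-Rnr2 stayed among those called. In the fit without both libraries 8947 of all names were called, against 5823 with all libraries. The count of members is therefore given as a description.

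Of the 40 nuclear factors of mitochondrial DNA and RNA, 15 rose and 1 fell in AKI against Control, where 20% of all names rose and 15% fell. Ssbp1 rose by 1.09 ± 0.19 on the log2 scale (edgeR adjusted p = 0.00051). Rexo2, an exonuclease for short RNAs, rose by 1.37, Mtpap, the mitochondrial poly(A) polymerase, by 1.04 and Pnpt1, an RNA-degrading enzyme, by 1.02 on the log2 scale (edgeR adjusted p = 0.00087, 0.00014 and 7e-05). Polrmt fell by 0.97 ± 0.14 (9.1e-05 by edgeR), and Mterf4, of the mitochondrial transcription termination factor family, rose by 0.58 ± 0.21 (0.039). Tfam rose by 0.47 ± 0.15 (edgeR adjusted p = 0.019), while Lrpprc (0.18, 0.4) and Ppargc1a (-0.51, 0.091) did not pass. Against AKI, 25 factors were lower and 1 higher in BM-MSC (17.1% and 16.3% of all names), and 30 lower and 0 higher in UC-MSC (20.1% and 20.3% of all names), such as Pnpt1 in UC-MSC (-1.50 ± 0.14, edgeR adjusted p = 5.1e-06) and Rexo2 in BM-MSC (-1.53 ± 0.26, 0.00043). These comparisons share the AKI libraries. Of 79 nuclear subunits of complexes I to V, 14 rose and 0 fell in AKI against Control, so the share that rose was no higher than the 20% over all names. Those 14 include Uqcrb of complex III (1.07 ± 0.19, edgeR adjusted p = 0.00053). Summed proximal tubule markers were 6035 to 9964 CPM in AKI, 4928 to 10920 in BM-MSC, 1908 to 6597 in UC-MSC and 12650 to 15290 CPM in Control, and mean Rn7sk was 11.3, 1.36, 3.15 and 1.31 CPM in the same order. Single AKI libraries had 4.72 to 29.6 CPM of Rn7sk.

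Markers of other cells also moved between these groups. Of the endothelial list 4 of 6 names were among those analysed, and of the fat list 5 of 6. Every marker analysed of the kinds given here was detected in each group. The 4 endothelial markers analysed summed to 381 to 587 CPM in BM-MSC and 460 to 548 in UC-MSC. They summed to 56.5 to 229 CPM in AKI and 409 to 436 CPM in Control. The 6 fibroblast markers summed to 1335 to 2692 CPM in BM-MSC and 525 to 1982 in UC-MSC, against 228 to 364 CPM in AKI and 363 to 449 CPM in Control. AKI was below both treated groups in both sums. In the fibroblast list Acta2, Col1a1, Col3a1, Dcn and Lum were called higher than AKI in both treated groups. Pdgfrb went the other way, lower in BM-MSC than in AKI (-2.28 ± 0.81, edgeR adjusted p = 0.04). In UC-MSC against AKI it was at -0.55 and did not pass. The 5 erythroid markers summed to 292 to 600 CPM in BM-MSC and 904 to 3467 in UC-MSC, against 94.3 to 187 CPM in AKI and 451 to 614 CPM in Control. The 10 leukocyte markers summed to 188 to 614 CPM in BM-MSC and 127 to 614 in UC-MSC, against 79.9 to 196 CPM in AKI and 76.4 to 103 CPM in Control. The sum of the 5 markers of brown and white fat analysed was highest in AKI, though the AKI range overlapped with UC-MSC. It was 39.6 to 70.9 CPM in BM-MSC and 90.6 to 231 CPM in UC-MSC. AKI had 210 to 412 CPM and Control 93.7 to 138 CPM. The part of these cells and of the tubule in the mt- values was not tested.

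AKI and IRI 6 h carry the same label of injury and time, yet differ in the rRNAs. mt-Rnr1 had 10050, 4818, 4383 and 5157 CPM in AKI, against 1789, 926, 1186 and 982 CPM in IRI 6 h, each scaled in its own table and with no overlap. In a single fit of the names that agree, edgeR gave 2.31 ± 0.25 for mt-Rnr1 and 2.38 ± 0.33 for mt-Rnr2 (adjusted p = 9.2e-08 and 5e-06). mt-Tn (2.12) was also higher, mt-Ti (-2.99) lower, and mt-Atp8 (3.68, adjusted p = 0.0051) higher only with AKI library 1 (0.22, 0.85 without it). In that fit 4 members were higher and 1 lower of 24 tested, where 20.8% of all names were called (10.1% higher, 10.7% lower). This comparison was added after the data had been seen, and AKI and IRI 6 h stand in different tables and joined sets of columns.

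In sham 24 h kidneys 8 of 13 mitochondrial protein genes were higher, while nuclear subunits of complexes I to V were lower. The 37 names took 43.8% to 51.9% of counts in sham 24 h and 29.6% to 36.3% in sham control libraries. mt-Co1 had 177500, 182400, 137800 and 166300 CPM in sham 24 h, against 104300, 109600, 112200 and 85740 CPM in sham control. mt-Nd1 had 63420, 70630, 52290 and 61450 CPM in sham 24 h, against 39890, 39540, 43820 and 31830 CPM in sham control. mt-Cytb had 96660, 102200, 79480 and 100100 CPM in sham 24 h, against 65990, 66260, 72150 and 51460 CPM in sham control. For each of these genes every sham 24 h library lay above every sham control library.

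Of 16 members tested, 11 were called higher and 0 lower by edgeR in sham 24 h, where 20.8% of all names were called (7.7% higher, 13.1% lower), and in those 11 the ranges did not overlap. No share over all names was taken for the ranges. They come from the same libraries as the calls and add no support to them. mt-Co1 was higher by 0.69 on the log2 scale (adjusted p = 0.00086), mt-Nd1 by 0.68 (0.001), mt-Nd2 by 0.67 (0.002), mt-Nd4 and mt-Nd6 by 0.60 (0.0032 and 0.0021), mt-Cytb by 0.57 (0.0042) and mt-Nd5 by 0.47 (0.008). mt-Atp6, a complex V subunit with a nuclear copy, was higher by 0.83 (edgeR adjusted p = 0.011), and by 0.45 without sham 24 h library 2, which had 7302 CPM, against 3161 to 3463 CPM in the others. The median of the 13 protein genes was 0.60, against 0.04 for all names tested. mt-Co2 (0.44, edgeR adjusted p = 0.074), mt-Co3 (0.53, 0.095), mt-Nd3 (0.55, 0.094), mt-Atp8 (0.65, 0.095) and mt-Nd4l (-0.01, 0.99) did not pass.

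The rRNAs rose as well after sham surgery. mt-Rnr1 had 3150, 2996, 2470 and 2575 CPM in sham 24 h, against 1929, 1260, 2088 and 1004 CPM in sham control (0.83, edgeR adjusted p = 0.0036). mt-Rnr2 had 4635, 4302, 3849 and 4126 CPM in sham 24 h, against 2779, 1871, 2849 and 1454 CPM in sham control (0.92, 0.001 by edgeR). Neither overlapped, although sham control libraries 2 and 4 lay well below 1 and 3. Per 100 counts of the protein genes there were 1.32 to 1.53 rRNA counts in sham 24 h and 0.934 to 1.44 in sham control.

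Only 4 of 22 tRNAs had any count in the sham table, and 18 were at 0 in all of its libraries. A count of 0 there allows up to 0.0123 CPM (3 counts over all 243851560 counts of the table, counting error only). In the shallower Control libraries 19 tRNAs had a count, and 16 of them were among the 18 at 0 in the sham table. mt-Te, mt-Tk and mt-Ts1 had at most 21 counts in a library. mt-Tp had 383, 390, 321 and 358 CPM in sham 24 h, against 252, 238, 289 and 177 CPM in sham control, with no overlap (0.60, edgeR adjusted p = 0.003). The share of counts on mt- protein genes also differed between unoperated kidneys of the tables, 29.3% to 35.7% in sham control and 12.1% to 15.1% in Control with the matched rows. The tables and these differences cannot be told apart.

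**Figure D5:**
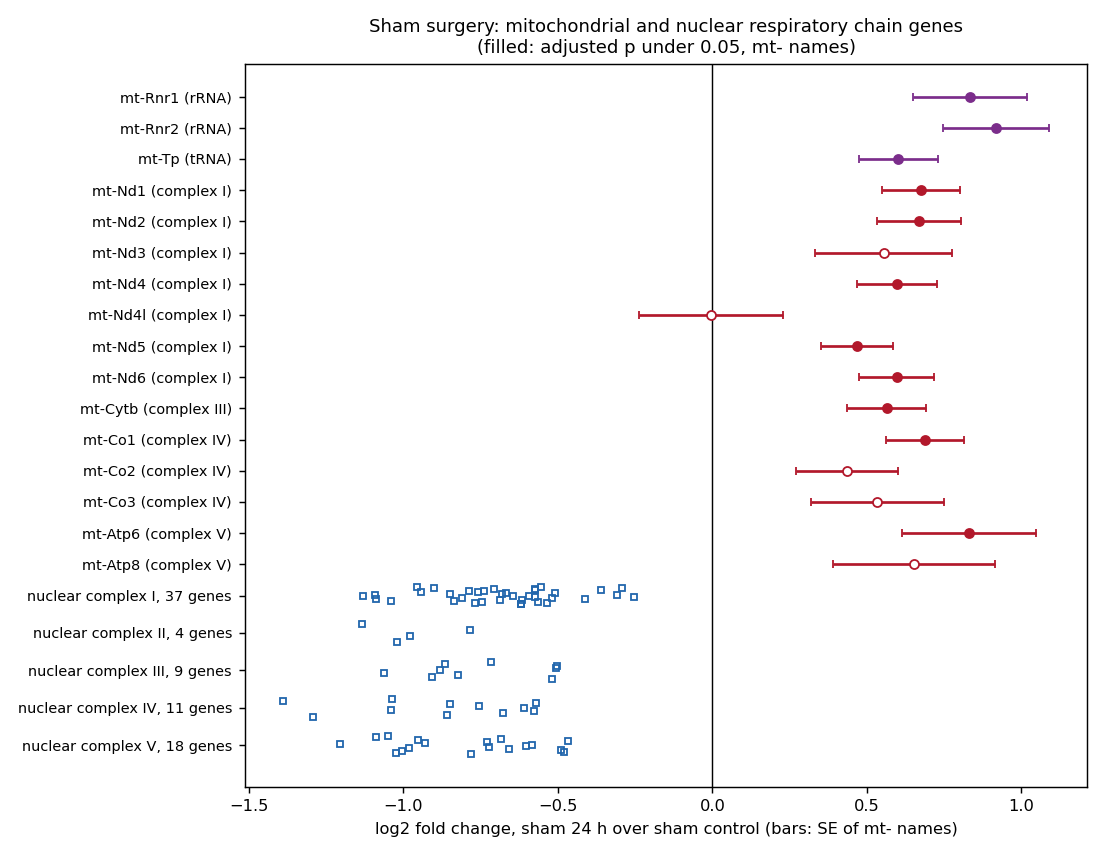
Log2 fold change of sham 24 h over sham control for each tested mt- name (points with standard errors, filled where the edgeR adjusted p was under 0.05) and for nuclear subunits of complexes I to V (open squares, 37, 4, 9, 11 and 18 genes). All mt- names but mt-Nd4l lie above 0 and all nuclear subunits lie below 0.

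Nuclear subunits of complexes I to V, complex II among them, fell in sham 24 h: 75 of 79 tested were called lower and 0 higher. Their median was -0.74 and their range -1.39 to -0.25 on the log2 scale. Cox5a of complex IV was at -1.39 ± 0.19, Ndufb6 of complex I at -1.13 ± 0.13, Sdha of complex II at -1.13 ± 0.14 and Atp5b of complex V at -1.09 ± 0.14 (edgeR adjusted p = 5.8e-05, 1.3e-05, 3.8e-05 and 4.3e-05). Of 39 factors of mitochondrial DNA and RNA, 7 fell and 0 rose, where 13.1% of all names fell and 7.7% rose, so that count is given as a description. Those that fell include Lrpprc (-0.66 ± 0.10, edgeR adjusted p = 0.00016) and Tfam (-0.59 ± 0.17, 0.017). Summed proximal tubule markers were 4026 to 5144 CPM in sham 24 h and 7484 to 10230 CPM in sham control, and their part was not tested. Counts of mt- names fill a large share of these libraries. Scaled by library totals, by DESeq2 size factors or without the filter, the count of members called in sham 24 h stayed within 1.5 times of 11.

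The change 24 h after IRI was set against the change 24 h after sham surgery, each against its own unoperated group, in a single fit. The difference was 2.32 ± 0.24 on the log2 scale for mt-Rnr1, 2.18 ± 0.24 for mt-Rnr2, 3.12 ± 0.57 for mt-Nd3, 2.37 ± 0.41 for mt-Co2 and 0.72 ± 0.23 for mt-Nd6 (edgeR adjusted p = 6.6e-08, 9.8e-08, 1e-04, 6.3e-05 and 0.012). mt-Tp (0.21, edgeR adjusted p = 0.52) and mt-Atp8 (-0.68, 0.32) did not pass. In this fit 44.9% of all names were called (24.8% higher, 20.1% lower), and 5 members were called, all higher. The difference could be estimated for 9 of 21 members tested, since the others were tRNAs at 0 in the sham libraries. The arms were counted in separate tables, so a difference between the tables that acts on injured and unoperated libraries alike drops out of this value, and a difference that does not cannot be told apart from the groups.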

How the data were processed

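Whole kidneys of 40 mouse samples were sequenced by the authors and deposited as raw counts of reads per gene in 3 tables, which the submitters' processing notes tie to HTSeq, DESeq2 and GRCm39. Aligner, strand setting and RNA selection are not given in the sources used here. Some names stand on several lines because more than 1 gene ID has that name, and they entered once per library. The 81 names that disagree between the temporal and therapy tables, stand in a single table or repeat with different counts were left out of both fits, 9 mt- names among them. The mt- members and the gene lists were chosen with earlier results of these data known.

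A single fit per table with every group of that table was made in edgeR 4.0.16 (TMM, filterByExpr, quasi-likelihood test, two-sided), with Benjamini-Hochberg adjustment over all names tested and calls at an adjusted p under 0.05. Depth differed between libraries and limits the precision of low tRNA counts. DESeq2 1.42.0, other scalings, no filter, fits of the compared groups alone, each library left out and a replicate block were alternatives. Same-numbered samples of the temporal and therapy tables did not deviate together, so numbers were treated as names. The fit was tested on simulated counts. Nuclear copies were found by aligning GENCODE M21 chrM transcripts to the other M21 transcripts (at least 97% identity over 60 bases). All mt- names may be named. Of each nuclear list, among them one for mtDNA transcription and replication and another for RNA processing and decay, up to 3 called genes with the largest change and a mean log2 CPM of at least 3 are named. Polrmt, Tfam, Lrpprc and Ppargc1a are named besides, though not in every comparison.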

Additional observations from a re-analysis of the deposited data

Results flagged for a closer look

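Within groups of 4, 30 of 200 sets of values had a library far from the other 3. The cut-off would flag about 1 in 20 independent sets. These sets share libraries, so the number flagged cannot be set against that rate. Most of the 30 were UC-MSC library 4 and AKI library 1. UC-MSC library 4 stood above its group with 2181 CPM of mt-Co2, 105.6 of mt-Nd3, 412.8 of mt-Tp, 285.3 of mt-Te, 100.1 of mt-Tc, 99.41 of mt-Tl2, 96.44 of mt-Tl1, 63.46 of mt-Tn, 50.42 of mt-Ty and 30.2 CPM of mt-Tw. Its agreeing mt- names took 1.678% of counts, against 0.734% to 0.805% in the other UC-MSC libraries. AKI library 1 stood above its group with 15460 CPM of mt-Rnr2, 10050 of mt-Rnr1, 1997 of mt-Co2, 354.6 of mt-Atp8, 151.1 of mt-Tc, 125.2 of mt-Tn, 37.1 of mt-Tl1, 29.68 of mt-Ty and 7.07 CPM of mt-Tw. Its rRNAs took 2.393% of counts, against 0.944% to 1.14% in the other AKI libraries.

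IRI 6 h library 1 stood above its group with 3184 CPM of mt-Rnr2, 14.4 CPM of mt-Tl1, an rRNA share of 0.4994% and 5.271 rRNA counts per 100 protein-gene counts, against 1.87 to 2.13 in the other 6 h libraries. IRI 72 h library 3 had 13100 CPM of mt-Co2, against 2154 to 3056 CPM in the others, and a share of agreeing mt- names of 6.477%. Sham 24 h library 2 had 7302 CPM of mt-Atp6. Control library 1 had 41.24 CPM of mt-Nd3, and in Control library 3 the protein genes, 9 of them read from matched rows, took 12.11% of counts, below the others.

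The change 24 h after IRI exceeded that 24 h after sham surgery by 2.365 (mt-Co2), 3.115 (mt-Nd3), 0.724 (mt-Nd6), 2.316 (mt-Rnr1) and 2.183 (mt-Rnr2) on the log2 scale. AKI differed from IRI 6 h, labelled alike, by 3.676 (mt-Atp8), 2.312 (mt-Rnr1), 2.381 (mt-Rnr2), 2.125 (mt-Tn) and -2.991 (mt-Ti). In the temporal table the Gja1 row equals mt-Co2 in 20 libraries, and Gja1 itself is not analysed here.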

How the results depend on the processing

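Of 94 called fold changes, 69 kept their call under every alternative run. Over 1524 alternative values 1411 stayed on the same side of the threshold, 108 lost it and 5 changed sign. The cause of these shifts was not tested. The reversals were mt-Te (-0.077), mt-Tt (-2.80) and mt-Tv (-2.44) at 48 h without libraries 2 and 4, and mt-Atp8 in BM-MSC against AKI, 0.065 without AKI library 1 and 0.048 without that library and UC-MSC library 4. Over all libraries left out, mt-Te at 48 h reached 1.27, mt-Tt 6.83, mt-Tv 8.04, and mt-Atp8 -3.83 in BM-MSC against AKI.

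Counts of members called moved by more than 1.5 times as follows. These counts, and those with single libraries left out further below, are given as a description. Where no count over all names stands beside them, they cannot be set against the shift of all names. At 6 h after IRI (3 called) library totals without TMM gave 1, a fit of the compared groups alone 8 and the matched rows 8. Members tested were 23, 23, 19 and 31 in the main fit, by library totals, in the compared groups and with the matched rows. Over all names 3139, 3054, 7448 and 3204 were called in that order. The matched rows gave 19 of 31 tested at 24 h (12 called), and leaving out libraries 2 and 4 gave 13 at 48 h (21 called). Over all names these fits called 7010 and 9232, against 6990 and 8950 in the main fit. Without AKI library 1 and UC-MSC library 4 the counts were 11 in AKI against Control (5 called), 10 in UC-MSC against Control (2 called), 9 in BM-MSC against AKI (5 called), 9 in UC-MSC against AKI (5 called) and 6 in UC-MSC against BM-MSC (1 called). In AKI against Control that fit called 8947 of all names, against 5823 in the main fit. Fits of the compared groups alone gave 1 in BM-MSC against Control (0 called). There 4965 of all names were called, against 1485 in the main fit. Fits of this kind gave 3 in BM-MSC against AKI, 2 in UC-MSC against AKI and 2 in UC-MSC against BM-MSC. UC-MSC against BM-MSC also had 4 by DESeq2, 3 without a filter and 2 with every therapy-table name, and AKI against IRI 6 h had 8 without a filter (5 called). With the replicate block 1 member was called in UC-MSC against Control and 3 in UC-MSC against AKI, and other counts moved by less than 1.5 times. The block was not run for sham 24 h or for IRI against sham, because the sham control columns carry no sample of their own to pair.

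Leaving out each library in turn gave 0 to 2 members called at 6 h (0 without Control library 4, 1 without Control library 2 or 3 or 6 h library 1 or 2), 12 to 13 at 24 h, 18 to 21 at 48 h, 14 to 19 at 72 h, 11 to 14 in sham 24 h and 5 to 5 in IRI against sham. It gave 3 to 5 in AKI against Control (3 without Control library 3 or 4), 0 to 0 in BM-MSC and 1 to 3 in UC-MSC against Control (1 without Control library 1, 2 or 3). It gave 3 to 6 in BM-MSC against AKI (3 without BM-MSC library 2 or 3), 4 to 9 in UC-MSC against AKI (8 without AKI library 1, 9 without UC-MSC library 4), 1 to 4 in UC-MSC against BM-MSC (4 without UC-MSC library 1, 2 without UC-MSC library 3) and 4 to 7 in AKI against IRI 6 h.

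The median share of counts on mt- names depends on the names counted. With all 37 names, 9 of them read from matched rows in the temporal table, it was 14.9% in Control and 10.6% at 6 h. It was 26.7% at 24 h, 34.5% at 48 h and 41.0% at 72 h. Under therapy-table names it was 15.1% in Control (12.5% to 15.5%) and 11.1% in AKI (7.68% to 21.6%). There it was 10.6% in BM-MSC (7.62% to 11.1%) and 10.4% in UC-MSC (8.92% to 21.3%). With totals over every name, the agreeing names took 0.640% in Control, 2.67% at 24 h, 3.76% at 48 h, 3.33% at 72 h and 0.583% in BM-MSC. Without the 10 most abundant nuclear names the share was 7.39% at 72 h, 0.736% in BM-MSC and 36.6% in sham control. Scaling by library totals moved the median of all names by over 0.1 in some comparisons, to 0.27 in BM-MSC against AKI. Low depth at 48 and 72 h limits tRNAs of few counts.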

Other observations

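Adding the counts of near-identical nuclear copies, an alternative chosen after seeing the data and given as log2 ratios of means with no test, left the sham values of the copied mt- names close to those without them. With copies mt-Atp6 was at 0.78 (0.73 alone), mt-Co1 at 0.60 (0.60 alone), mt-Co2 at 0.48 (0.36 alone), mt-Co3 at 0.42 (0.45 alone), mt-Nd4 at 0.51 (0.51 alone) and mt-Nd4l at 0.13 (-0.09 alone) in sham 24 h over sham control. The copy of mt-Co2, Gm28661, had a mean of 2133 CPM (of library totals, unscaled) in sham 24 h and 1230 in sham control.

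mt-Tp made up 46.6% to 56.5% of tRNA counts in Control, 19.5% to 56.4% at 48 h and 55.3% to 59.4% at 72 h after IRI. In AKI its share was 12.7% in library 1 and 44.2% to 53.7% in the other libraries. Ppargc1a, a nuclear coactivator of mitochondrial genes, averaged 75.3 ± 1.80 CPM in Control, 95.6 ± 11.3 at 6 h, 23.2 ± 2.49 at 24 h, 18.1 ± 8.79 at 48 h and 14.1 ± 3.29 CPM at 72 h after IRI (SD, n = 4 each). Its edgeR quasi-likelihood change was -1.70 ± 0.23 at 24 h, -2.06 ± 0.24 at 48 h and -2.42 ± 0.25 at 72 h (SE; adjusted p = 3.1e-06, 1.7e-07 and 2e-08), while at 6 h it did not pass (0.35, 0.34). In the therapy table it was lower in UC-MSC than in Control by edgeR's quasi-likelihood test (-1.41 on the log2 scale), and in sham 24 h it was at -0.23 and did not pass.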
